A study of Drosophila melanogaster with 12 samples.

Results

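Flies recognise microbes with proteins that bind peptidoglycan or beta-glucan and pass the signal to an NF-kappaB factor along the Toll or the Imd pathway. The 35 genes described here encode these recognition proteins, the signalling chains of both pathways and their inhibitors. They were taken by FlyBase symbol from a list chosen with earlier results of these data known. All 35 had a row among the 13515 genes of the table. By role, 10 belong to recognition, 8 to the Imd arm, 9 to the Toll arm and 8 to the negative regulators.

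RNA came from heads of tau flies (Elav-Gal4/+;UAS-tauR406W/+) and of control flies (Elav-Gal4/+), all aged 10 days as adults. Elav-Gal4 drives expression in neurons, and both genotypes carried 1 copy of it. The tau flies also produced human tau with the R406W change known from inherited dementia, whereas the controls had no UAS transgene. Each of the 6 tau and 6 control libraries was a pool of 18 heads of both sexes, whose ratio is not given in the sources used here. RNA of the human transgene was not analysed here.

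In Imd signalling, the membrane receptor PGRP-LC or the PGRP-LE receptor meets bacterial peptidoglycan and engages the adaptor imd. Fadd and the caspase Dredd, the kinase Tak1 with Tab2, and the IKK complex of IKKbeta and key then activate Relish (Rel). In Toll signalling, circulating sensors such as PGRP-SA, GNBP1 and GNBP3, or the protease psh, start a protease cascade that ends in SPE. SPE cleaves spz, the ligand of the receptor Toll (Tl), and Myd88, tub and pll then free Dif and dl from the inhibitor cact. Much of the circulating machinery is made by fat body and blood cells, while the receptors are also used in epithelia, glia and neurons.

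Values are normalised counts, which the authors' deposited table names as gene counts normalised with DESeq2. The totals were 24.65 to 26.68 M in tau libraries and 25.92 to 30.24 M in control libraries. The depth, estimated from the value of 1 read pair in each library, was 25.7 to 41.5 M read pairs in tau and 20.3 to 33.2 M in control. From 28.1% (control C) to 72.9% (tau A) of low values lay near whole multiples of that value, so these depths are rough. Tau B listed 195 genes at 0, control E 433 and control F 484, whereas the other libraries listed at least 1492, and results are given with and without these 3 libraries where it matters. All 8 neuronal markers were tested in these heads and none was called. Their summed level was 129270 to 172632 in tau and 114356 to 191856 in control.

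Of the 35 genes, 33 had a mean of at least 10 and were tested with limma on log2(value + 1) across 10845 genes. A gene was called at a Benjamini-Hochberg adjusted p under 0.05. The inhibitors PGRP-LF and PGRP-LB, the Imd-arm gene Tab2 and the Toll-arm factor dl rose, 29 genes were not called, and none was called lower. Among all tested genes, 2.1% were called higher, 3.13% lower and 5.23% in either direction. The median log2 fold change was 0.09 over the 33 genes and 0.008 over all tested genes. At an unadjusted p under 0.05, 8 members were higher and 4 lower, against 8.63% higher and 9.55% lower among all tested genes. With the level of yolk protein genes as a covariate none of the 33 was called, and the log2 fold changes were then 0.28 for Tab2, 0.26 for dl, 0.32 for PGRP-LB and 0.78 for PGRP-LF (limma adjusted p from 0.189 to 0.436). The yolk protein genes themselves had log2 fold changes of −0.91 (Yp1), −1.22 (Yp2) and −0.89 (Yp3), none called, so this covariate partly tracked the group. With libraries scaled to equal totals PGRP-LA and cact were called higher as well, with a median of 0.20 over the members and 0.112 over all genes.

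**Figure D1:**
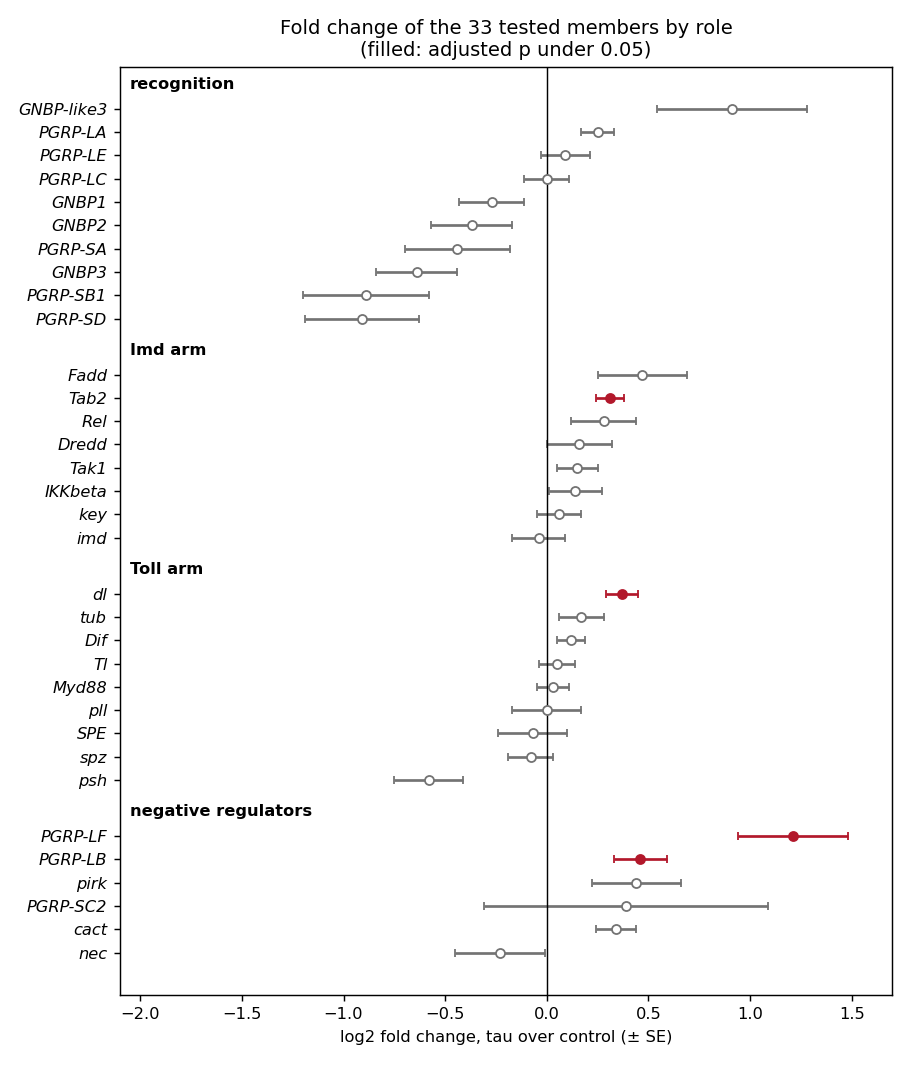
Log2 fold change of tau over control for the 33 tested genes, grouped by role, with the moderated standard error of limma as the bar and filled points for genes called at an adjusted p under 0.05. The filled points are PGRP-LF (1.21), PGRP-LB (0.46), dl (0.37) and Tab2 (0.31), and the negative values lie mostly among the recognition genes.

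Negative regulators held both the largest called change and the largest spread. PGRP-LF (FBgn0035977; 3L, 9349609 to 9351489, BDGP6/dm6 coordinates, plus strand) encodes a membrane protein that binds PGRP-LC and lacks its signalling part. The tau libraries ran from 440.6 over a median of 961.7 to 1289, and the control libraries from 248.7 over 350.7 to 476.7. Tau C, D and E lay between 1193 and 1289 and tau F at 731, all above the controls, whereas tau A (472) and tau B (441) lay just below control E (477). The mean was 902 ± 402 in tau and 362 ± 78.8 in control (SD, n = 6 each), a 2.31-fold rise with a log2 fold change of 1.21 ± 0.27 (SE; limma adjusted p = 0.0158). Leaving out single libraries gave log2 fold changes from 1.07 to 1.38 with the call kept in each case (limma adjusted p up to 0.0439). Without tau B, control E and control F the change was 1.5 (limma adjusted p = 0.0163), and without a variance trend the call was lost (limma adjusted p = 0.0545).

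PGRP-LF is the last of 3 neighbouring PGRP genes on the same strand. PGRP-LA ends 473 bp before PGRP-LC begins, and PGRP-LC ends 1272 bp before PGRP-LF. The receptor gene PGRP-LC averaged 1564 ± 225 in tau and 1563 ± 196 in control (log2 fold change −0.0031 ± 0.11, limma adjusted p = 0.995). PGRP-LA, a regulator of Imd signalling at barrier surfaces, averaged 1328 ± 82.9 in tau and 1120 ± 103 in control (0.25 ± 0.08, limma adjusted p = 0.109). Of the single libraries, only leaving out control B gave a call for PGRP-LA (0.29, limma adjusted p = 0.0475). Without tau B, control E and control F its change was 0.23 (limma adjusted p = 0.2955). The difference between the changes of these 3 genes was not tested. PGRP-LF shares 602 bp of exon with UGP on the opposite strand, and although the libraries were stranded, the sources used here do not say whether counting used strand. UGP, which makes UDP-glucose, averaged 5854 ± 512 in tau and 5991 ± 1257 in control (−0.01 ± 0.12, limma adjusted p = 0.981).

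**Figure D2:**
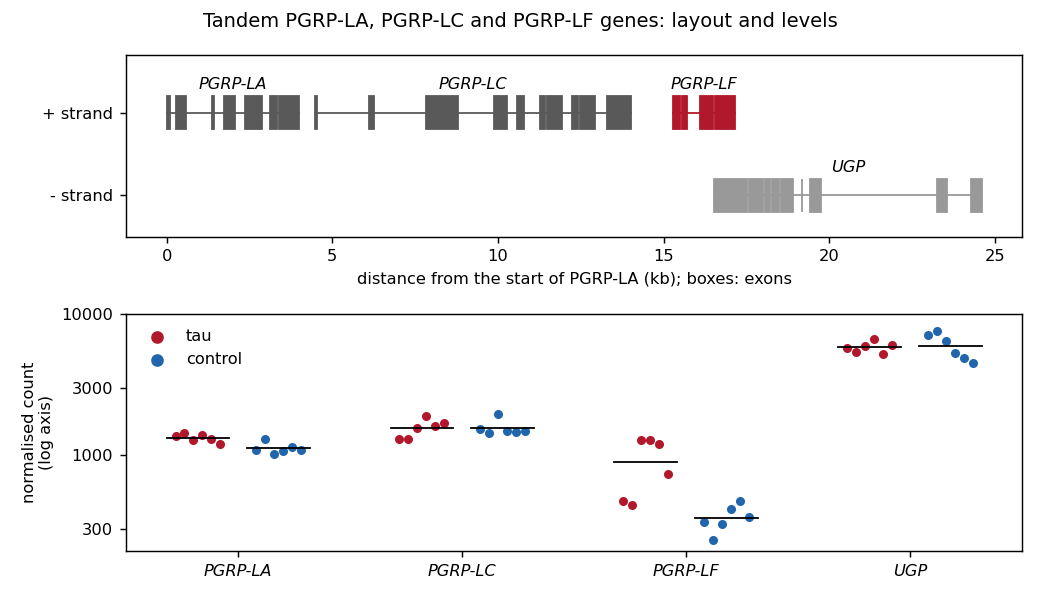
Top, exons (boxes) of PGRP-LA, PGRP-LC, PGRP-LF and UGP by distance in kb from the start of PGRP-LA. Bottom, normalised count of each gene on a log axis, 1 point per library (tau left, control right), with lines at the means; PGRP-LF averaged 902 in tau and 362 in control, while UGP, whose exons overlap its end, averaged 5854 in tau and 5991 in control.

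PGRP-LB (FBgn0037906; 3R, 11452849 to 11460552), an amidase that breaks down the peptidoglycan sensed by Imd receptors, was the other inhibitor that rose. Its tau values ran from 320.2 over 437.6 to 480.0, and its control values from 265.1 over 312.8 to 322.9. Only tau A lay within the control range. The log2 fold change was 0.46 ± 0.13 (limma adjusted p = 0.0455), and leaving out any single library except tau A ended the call, with adjusted p from 0.0518 to 0.112. The call was also absent without tau B, control E and control F (limma adjusted p = 0.136).

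**Figure D3:**
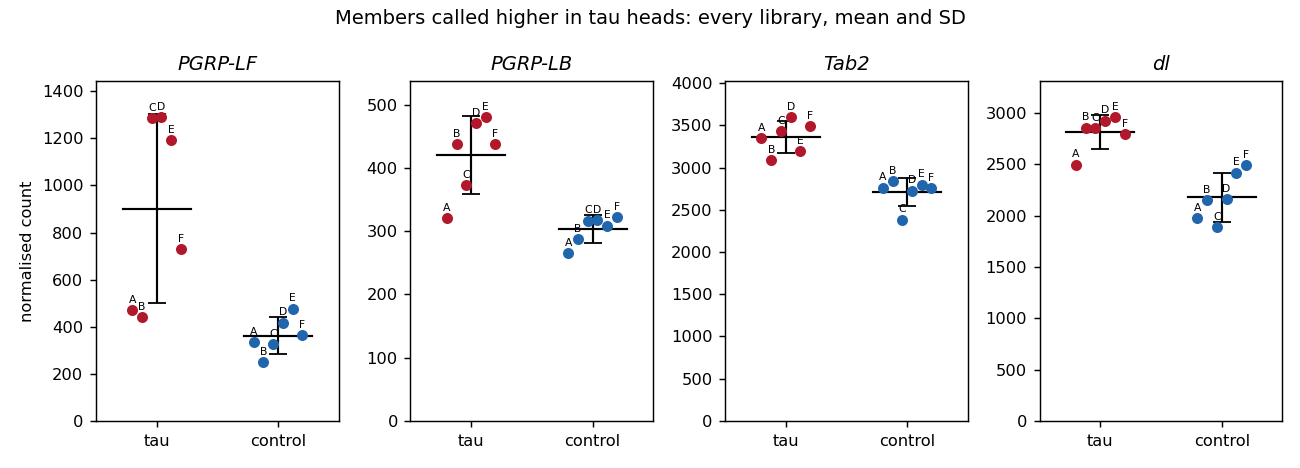
Normalised count in each of the 6 tau (left) and 6 control (right) libraries for the 4 genes that rose, with letters naming the libraries, horizontal lines at the mean and bars of 1 SD. Tab2 and dl separate the groups, while PGRP-LF in tau A and tau B and PGRP-LB in tau A lie within the control range.

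The other inhibitors were not called. cact, the IkappaB protein that holds Dif and dl in the cytoplasm, ran from 4405 over 4996 to 6610 in tau and from 3440 over 4120 to 4591 in control. Its ranges overlapped only through tau A and control E, and the log2 fold change was 0.34 ± 0.10 (limma adjusted p = 0.0697, and 0.0461 without tau A). Leaving out any other single library gave no call for cact, nor did leaving out tau B, control E and control F together. pirk, which blocks the adaptor role of imd at the receptors, averaged 350 ± 103 in tau and 257 ± 72.5 in control (0.44 ± 0.22, limma adjusted p = 0.329). nec, a serpin that restrains the Toll protease cascade, was the most abundant of the 35 genes per kb of exon, at 7879 in tau and 8990 in control. Its values ran from 7969 over 12457 to 19460 in tau and from 8416 over 15421 to 18448 in control, so the groups covered nearly the same range (−0.23 ± 0.22, limma adjusted p = 0.670).

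The secreted amidases PGRP-SC1a, PGRP-SC1b and PGRP-SC2 lie next to each other on 2R. PGRP-SC2 was the most variable tested gene of the set, from 73.4 over 152.5 to 929.0 in tau and from 54.3 over 127.5 to 1191 in control (log2 fold change 0.39 ± 0.70, limma adjusted p = 0.846). Tau E, tau F (560.4) and control E stood far above the rest. PGRP-SC1a and PGRP-SC1b had means under 10 over all libraries and were each listed at 0 in 6 of 12 libraries, with the highest values in tau B, at 66.2 and 55.1. Tau B, which listed the fewest genes at 0, also held the highest values of other genes with means under 10. Examples are PGRP-SB2 (49.6), Sr-CIV (52.4) and Npc2d (32.5). PGRP-SC1a and PGRP-SC1b are close copies whose reads may be split between them. Their sum differed by −0.21 on the log2 scale (exact two-sided permutation p = 0.892), and the sign changed with a pseudocount of 5 (0.23, exact permutation p = 0.829).

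**Figure D4:**
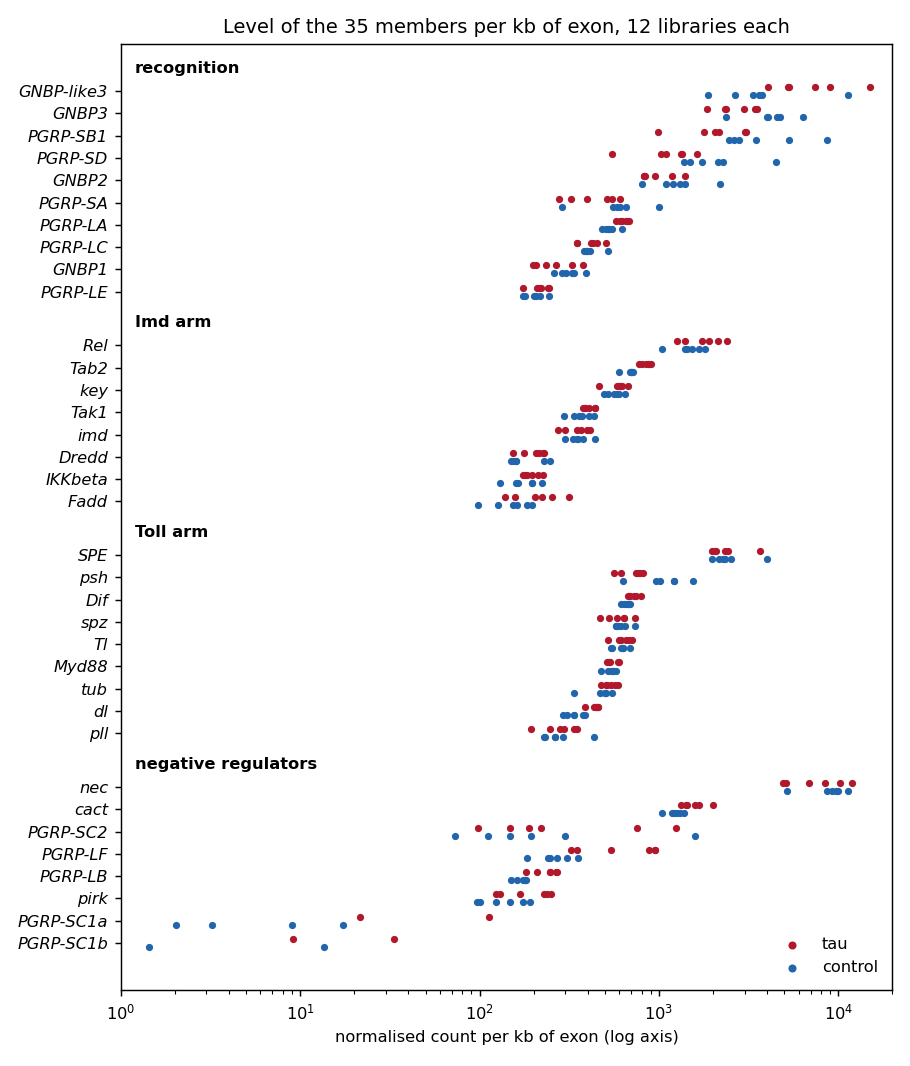
Normalised count per kb of exon on a log axis for all 35 genes, tau points above control points, 1 per library, with values under 1 per kb left out (PGRP-SC1a and PGRP-SC1b only). nec, GNBP-like3, GNBP3 and PGRP-SB1 had the 4 highest control means, and pirk, PGRP-SC1a and PGRP-SC1b the lowest.

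Recognition genes were the group in which negative values prevailed, with 7 of 10 negative, none called in either direction, and a median log2 fold change of −0.32. Among all tested genes 48.6% were negative. GNBP3, which binds fungal beta-glucan and feeds the Toll cascade, ran from 2829 over 4065 to 5375 in tau and from 3601 over 6606 to 9708 in control. Control B, at 3601, lay among the tau libraries, and the other controls all lay above the highest tau library. The log2 fold change was −0.64 ± 0.20 (limma adjusted p = 0.0846). It was −0.81 without control B (limma adjusted p = 0.00855), the only single library whose removal gave a call. Without control C it was −0.52 (limma adjusted p = 0.154), and without tau B −0.54 (limma adjusted p = 0.157). Without tau B, control E and control F it was −0.51 (limma adjusted p = 0.307). PGRP-SD, a circulating protein that helps present peptidoglycan to the receptors, ran from 393.2 over 868.2 to 1173 in tau and from 992.6 over 1393 to 3232 in control. Control C, at 3232, stood well above the other controls, and control B and control D lay within the tau range. The change was −0.91 ± 0.28 (limma adjusted p = 0.0732). It was −1.03 without control B (limma adjusted p = 0.0410), again the only single library whose removal gave a call. Without control C it was −0.69 (limma adjusted p = 0.112), and without tau B, control E and control F −0.74 (limma adjusted p = 0.219).

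The remaining secreted sensors had the same sign without being called. PGRP-SB1, a peptidoglycan amidase, averaged 1352 ± 487 in tau and 2624 ± 1494 in control (log2 fold change −0.89 ± 0.31, limma adjusted p = 0.120). PGRP-SA, the circulating receptor for Lys-type peptidoglycan, averaged 452 ± 134 in tau and 626 ± 235 in control (−0.44 ± 0.26, limma adjusted p = 0.406). GNBP1, its partner in Toll activation, averaged 480 ± 126 in tau and 566 ± 82.3 in control (−0.27 ± 0.16, limma adjusted p = 0.427). GNBP2, a relative of GNBP1 and GNBP3, averaged 1506 ± 352 in tau and 1999 ± 706 in control (−0.37 ± 0.20, limma adjusted p = 0.35). Summed over these 6 secreted sensors, a grouping made after their values were seen and therefore not tested, libraries ran from 5709 in tau B to 10995 in tau D and from 8091 in control B to 23224 in control C.

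Receptors on the membrane or inside the cell had log2 fold changes from −0.0031 in PGRP-LC to 0.25 in PGRP-LA, both given above. PGRP-LE, a receptor for small peptidoglycan fragments, averaged 450 ± 52.4 in tau and 422 ± 53.4 in control (log2 fold change 0.09 ± 0.12, limma adjusted p = 0.768). GNBP-like3, a short relative of the beta-glucan binding proteins, had a positive value, unlike the sensors above. It ran from 2078 over 3268 to 7752 in tau and from 962.3 over 1799 to 5787 in control. Control E was the exception among the controls, since the other controls were all at or under 1931, below every tau library. The log2 fold change was 0.91 ± 0.37 (limma adjusted p = 0.185). It was 1.23 without control E (limma adjusted p = 0.0249), the only single library whose removal gave a call. Without tau A it was 0.69 (limma adjusted p = 0.323), and without tau B, control E and control F 1.15 (limma adjusted p = 0.0664).

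Markers of blood cells (haemocytes) and fat body, the tissues that make circulating immune proteins, were called lower in tau in part. Among all tested genes 3.13% were called lower, 2.1% higher, and 48.6% had negative values. Of 14 tested haemocyte markers, 8 were called lower in tau, none higher, and all 14 had negative values. The summed level of that list was 34190 to 44579 in tau and 52369 to 74967 in control, without overlap. Col4a1, vkg and Hml had the highest control means of the list. Col4a1 and vkg were called lower, and Hml was not (6347 in tau, 7329 in control, limma adjusted p = 0.590). Whether the listed genes are specific to blood cells was not tested. Of 14 tested fat body markers, which include the yolk protein genes, 4 were called lower and none higher, while 3 had positive and 11 negative values. The highest positive log2 fold change was 0.59 in bmm (limma adjusted p = 0.0501). Sums over the fat body list were 653902 to 1520103 in tau and 877661 to 2571296 in control. Yp1, apolpp, Yp2 and Yp3 had the highest control means in it. Of 8 glial markers 1 was called lower, with sums of 50927 to 56097 in tau and 55722 to 68040 in control. No gene of these lists was at 0 in every library. The part of these tissues in the values of the recognition genes was not tested, and in head RNA fewer cells of a type cannot be told apart from less RNA per cell. The sex ratio of the pools is not given in the sources used here, and its part in these values was not tested either.

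In the Imd arm, Tab2 rose, the other 7 genes were not called, and 7 of the 8 values were positive, with a median of 0.15. Among all tested genes 48.6% had negative values and the median was 0.008. Tab2 (FBgn0086358; 2R, 19292529 to 19304508), the ubiquitin-binding partner of Tak1, ran from 3089 over 3393 to 3595 in tau and from 2385 over 2762 to 2837 in control. The groups did not overlap, which held for 2 of the 33 genes and for 3.37% of all tested genes. The rise was 1.239-fold, with a log2 fold change of 0.31 ± 0.07 (limma adjusted p = 0.0190), and the call was kept without each single library (adjusted p up to 0.0477). Without tau B, control E and control F the change was 0.35 (limma adjusted p = 0.0567).

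Rel, the NF-kappaB factor at the end of the Imd chain, was the most abundant gene of this arm per kb of exon, at 1804 in tau and 1474 in control. Its values ran from 4428 over 6362 to 8370 in tau and from 3614 over 5174 to 6279 in control. Tau C, D and E lay above every control, while tau A, B and F lay among the controls (log2 fold change 0.28 ± 0.16, limma adjusted p = 0.393). Rel lies within the span of Nmdmc on the same strand without shared exon, and Nmdmc, an enzyme of mitochondrial folate metabolism named after its value was seen, averaged 3014 ± 1124 in tau and 1068 ± 422 in control. Fadd, the adaptor between imd and Dredd, ran from 162.0 over 247.6 to 364.5 in tau and from 113.9 over 183.6 to 227.0 in control (0.47 ± 0.22, limma adjusted p = 0.271).

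The other Imd genes had log2 fold changes between −0.04 and 0.16. The caspase gene Dredd averaged 344 ± 51.1 in tau and 312 ± 74.0 in control, and the kinase gene Tak1 1598 ± 112 in tau and 1449 ± 196 in control. The IKK subunit genes IKKbeta and key had log2 fold changes of 0.14 ± 0.13 and 0.06 ± 0.11. The adaptor gene imd averaged 532 ± 82.4 in tau and 544 ± 70.4 in control (−0.04 ± 0.13, limma adjusted p = 0.928).

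In the Toll arm, dl rose, the other 8 genes were not called, and the median was 0.03. dl (Dorsal; FBgn0260632; 2L, 17436830 to 17450364), the NF-kappaB factor also known from embryonic patterning, ran from 2496 over 2854 to 2956 in tau and from 1885 over 2155 to 2492 in control. The groups just failed to overlap, with tau A lowest in tau and control F highest in control. The rise was 1.29-fold (log2 fold change 0.37 ± 0.08, limma adjusted p = 0.0167), and the call was kept without each single library (adjusted p up to 0.0498). Without tau B, control E and control F it was 0.46 (limma adjusted p = 0.0217). Dif, its neighbour on 2L and the main Toll factor of adult immunity, averaged 4085 ± 264 in tau and 3751 ± 152 in control (0.12 ± 0.07, limma adjusted p = 0.386). Dif shares 252 bp of exon with CG15141 on the opposite strand, which averaged 496 ± 66.7 in tau and 414 ± 26.8 in control.

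Upstream in the Toll cascade, psh had the sign of the secreted sensors. This protease, which is activated by microbial proteases, ran from 926.8 over 1237 to 1343 in tau and from 1034 over 1832 to 2538 in control. All controls except control B lay above every tau library (log2 fold change −0.58 ± 0.17, limma adjusted p = 0.0668), and the change was −0.73 without control B (limma adjusted p = 0.00409). Leaving out any other single library gave no call for psh, nor did leaving out tau B, control E and control F together. SPE, the most abundant gene of the Toll arm per kb of exon, ran from 2490 over 2795 to 4607 in tau and from 2495 over 2920 to 5098 in control. The ranges coincided, with tau D and control C high (−0.07 ± 0.17, limma adjusted p = 0.892). SPE shares 107 bp of exon on the same strand with CG18754, which had at most 55.0 in any library.

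From the ligand to the kinase pll, no gene of the Toll arm was called. The ligand gene spz averaged 1411 ± 226 in tau and 1476 ± 142 in control, and the receptor gene Tl 3276 ± 353 in tau and 3161 ± 300 in control. The adaptor genes Myd88 and tub had log2 fold changes of 0.03 ± 0.08 and 0.17 ± 0.11. The kinase gene pll averaged 548 ± 111 in tau and 550 ± 148 in control (0.0039 ± 0.17, limma adjusted p = 0.997). An adjusted p above the threshold does not show that these genes were equal, and the standard error was 0.17 for pll and SPE against 0.08 for Myd88.

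Seen by library, the 33 tested genes did not vary together as 1 block. Tau D held the highest tau value for 13 of the genes and tau B the lowest for 13. Among the controls, control B was lowest for 16 genes, while control C was highest for 10 and lowest for 11. Control C was the highest control for 6 of the 10 recognition genes and the lowest for 4 of the 8 Imd genes.

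**Figure D5:**
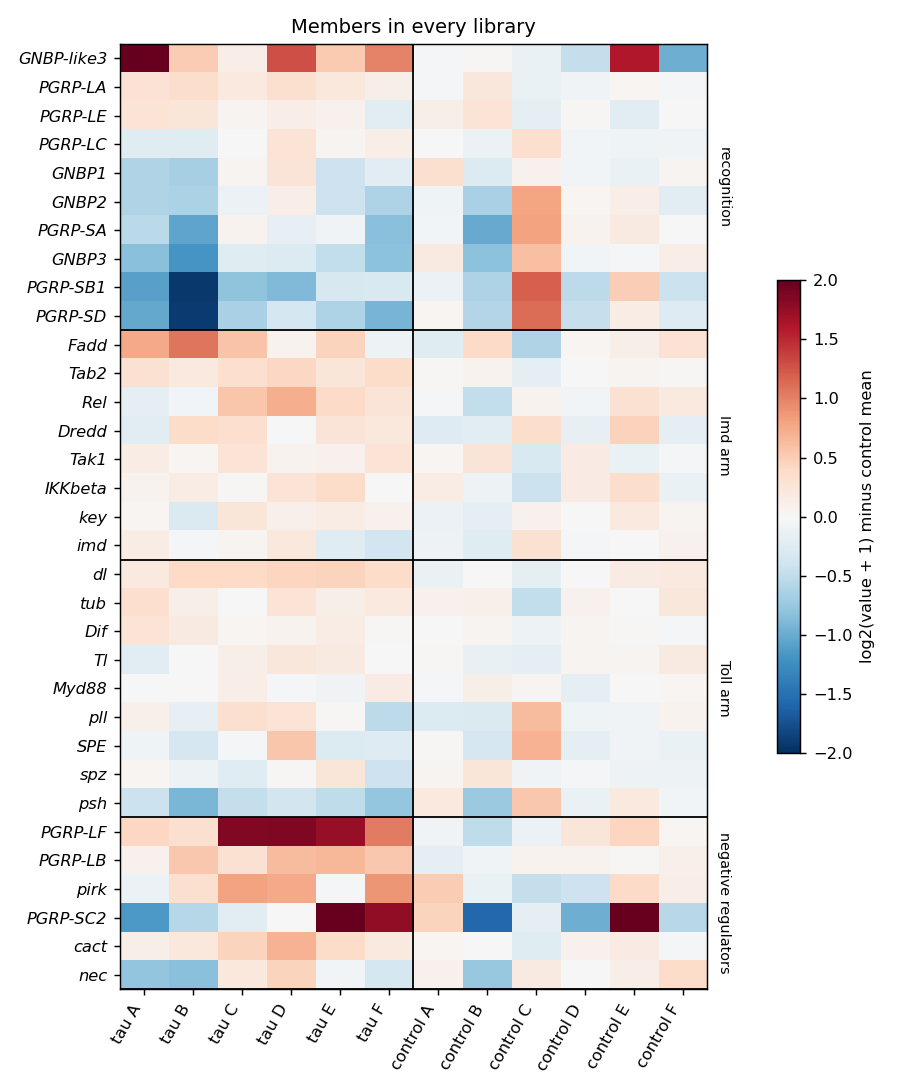
Log2(value + 1) minus the control mean for the 33 tested genes (rows, by role) in the 6 tau (left) and 6 control (right) libraries, with colours ending at −2 and 2. Among the tau libraries the secreted sensors and psh are lowest in tau B, and among the controls all of them except GNBP1 are highest in control C, where PGRP-SD reached 3232, and PGRP-LF is highest in tau C, D and E.

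Further genes of the same pathways were described from a list of 45 with a row, of which 41 were tested. The thioester protein gene Tep3 rose, Uev1A and Tep2 fell, 38 were not called, and the median was −0.04. For comparison, 5.23% of all tested genes were called in either direction, 2.1% higher and 3.13% lower. Tep2, a secreted opsonin-like protein, ran from 5302 over 6349 to 8854 in tau and from 9313 over 12785 to 14654 in control without overlap (log2 fold change −0.90 ± 0.13, limma adjusted p = 0.000972). Uev1A, a ubiquitin-conjugating partner that acts with imd signalling, averaged 3549 ± 191 in tau and 4501 ± 567 in control, also without overlap (−0.34 ± 0.09, limma adjusted p = 0.0319). Tep3 averaged 1674 ± 253 in tau and 1245 ± 107 in control (0.42 ± 0.11, limma adjusted p = 0.0303). The list held 6 extracellular serine proteases and homologues, namely modSP, grass, spirit, sphe, Hayan and Sp7, of which Sp7 is known for melanization and sphe is a homologue without catalytic activity. None of the 6 was called, and their median was −0.30. At an unadjusted p under 0.05, 1 of them was lower and 0 were higher, against 9.55% lower and 8.63% higher among all tested genes.

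Effector genes of both pathways give the outputs beside these signalling genes. Of 13 tested Imd targets, AttA rose, and of 16 Toll targets, Drs, BomS1, BomS3, BomBc1 and BomBc3 rose, and no target was called lower. Among all tested genes 2.1% were called higher. The folds were 6.91 for AttA, 11.8 for Drs, 3.44 for BomS1 and for BomS3, 10.99 for BomBc1 and 3.26 for BomBc3. Of these genes only BomBc3 had tau and control libraries without overlap. The median log2 fold change was 1.01 over the Imd targets and 0.61 over the Toll targets. Of the Imd targets 10 had positive and 3 negative values, the latter including AttC (−1.17) and Mtk (−0.93). Their sums were 4627 to 48821 in tau and 5689 to 87988 in control.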

How the data were processed

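Total RNA of 6 tau and 6 control head pools was sequenced after removal of ribosomal RNA, per the labels' protocols. Per the submitters' processing notes, the tools were Trimmomatic 0.36, FastQC, Salmon 0.13.1 and DESeq2 1.24, with build dm6. The deposited signal is the authors' normalised count per gene. The values are not whole reads, so no count model was used, and p-values measure the spread between pools, which the design text calls independent replicates. Genes with a mean of at least 10 (10845 of 13515) were fitted on log2(value + 1), which understates changes of low genes, with limma 3.58.1 in R 4.3.3 (variance trend, two-sided, Benjamini-Hochberg over all tested genes). The fit was tested on simulated data. Summed PGRP-SC1a and PGRP-SC1b were compared by an exact permutation test over 924 assignments, whose smallest p is 0.0022.

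Symbols and positions came from Ensembl release 115 (BDGP6, the dm6 coordinates), which matched 13433 of 13515 rows, and levels per kb used the union of exons. Full values were given for called and non-overlapping members and, per role, for the 2 most abundant per kb and the 2 with the largest change; other pathway genes and targets were named where called. The members and the gene lists were chosen with earlier results of these data known. Alternatives were other pseudocounts, filters and scalings, no variance trend, a replicate block, a yolk protein covariate and leaving out libraries. Sequences were not used here.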

Additional observations from a re-analysis of the deposited data

Results flagged for a closer look

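Of 66 groups of 6 libraries examined (33 genes in tau and in control), 10 held a library whose gap to the next exceeded Dixon's 95% critical value. For independent groups of normal values chance gives about 1 in 20. Here the values were normalised counts without a log, and the genes shared libraries, so that rate is only a rough guide. Tau D stood apart for SPE (4607, next 3070), and tau A was low for dl (2496, next 2791).

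Control C stood apart for 6 genes. It was high for PGRP-SD (3232, next 1647), PGRP-LC (1955, next 1548), SPE (5098, next 3198) and pll (836.2, next 564.4), and low for Tab2 (2385, next 2727) and tub (670.9, next 944.1). Control E was high for GNBP-like3 (5787, next 1931) and PGRP-SC2 (1191, next 223.6). Without control C the log2 fold change of tau over control was −0.69 for PGRP-SD (limma adjusted p = 0.112), against −0.91 with it, and 0.27 for Tab2 (limma adjusted p = 0.0245), against 0.31 with it.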

How the results depend on the processing

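Over 22 alternatives, 692 of 726 member values kept their side of the threshold, 20 lost a call, 14 gained one and none that was called reversed, while 10 uncalled members changed sign under at least 1 alternative. Since 29 of the 33 members were not called to begin with, most of these values had no call to lose. All 20 lost calls belonged to the 4 members called higher. Of all genes, 567 were called, against 369 without a variance trend, 146 with the yolk protein covariate, 308 without tau B, control E and control F, and 376 (without control A) to 674 (without control B) when single libraries were left out. The 4 members called higher became 0 with the yolk protein covariate and 2 (dl and PGRP-LF) without those 3 libraries. Their log2 fold changes stayed positive: Tab2 had 0.28 with the covariate and 0.35 without the 3 libraries, against 0.31, and PGRP-LB had 0.32 and 0.48, against 0.46. The count of members called lower, 0, became 2 (PGRP-SD and psh) with libraries recentred on their medians, and ranged from 0 to 3 when single libraries were left out, with PGRP-SD, GNBP3 and psh called without control B. Fewer samples were fitted where libraries were left out, and the yolk protein covariate partly tracked the group. Why the calls changed was not tested. The log2 difference of summed PGRP-SC1a and PGRP-SC1b ranged from −1.17 to 0.24 without single libraries and did not pass the test.

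Over all tested genes, the letters A to F gave no clear pairing of the libraries. Same-letter correlations of deviations ran from −0.226 to 0.137, and only A and C matched their own letter best. Such correlations cannot settle pairing for single genes. Of the 10 recognition genes, 6 were lowest in tau B among the tau libraries and 7 in control B among the controls. With the letter as a replicate block, 699 genes were called, with 3 members higher and 4 lower (PGRP-SD, PGRP-SB1, GNBP3 and psh). The summed PGRP-SC1a and PGRP-SC1b difference was then −0.21 (p = 0.875, exact two-sided test over sign flips of the 6 same-letter differences).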
